A study of Sus scrofa with 20 samples.

Results

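Oxidative phosphorylation is carried out by 5 protein complexes of the inner mitochondrial membrane, and the genes of their structural subunits were examined in backfat and liver. A gene was included when its symbol starts with NDUF, UQCR or ATP5, with COX4 to COX8, or is SDHA, SDHB, SDHC or SDHD, and when it lies among the 13 protein genes of mitochondrial DNA. The count table held 77 such genes, 64 nuclear and 13 mitochondrial, of 31907 genes, of which 15029 have a symbol. The prefixes matched 80 nuclear symbols. Of these, 9 were set aside as assembly or regulatory genes (the NDUFAF genes and ATP5IF1), and 7 structural symbols had no row in the table (ATP5MC2, ATP5MG, COX6C, NDUFA1, NDUFA13, NDUFC1 and UQCRB). Of the 64 nuclear genes, 62 passed the filter on low counts. NDUFB7 had 0 counts in each of the 10 libraries, and COX6B2 had between 2 and 15.

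Complex I takes electrons from NADH and complex II takes them from succinate. Complex III passes them to cytochrome c and complex IV to oxygen, and complex V uses the proton gradient so formed to make ATP. Each complex except complex II is built from subunits encoded in both genomes, so that nuclear and mitochondrial transcripts have to be made for the same enzyme. The mitochondrial genes are transcribed as long precursors that are later cut into shorter messenger RNAs. Liver is rich in mitochondria, while the white fat cell holds most of its volume as lipid.

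The tissues came from 5 boars of Nanchukmacdon, a Korean pig breed, which the labels describe as normal and 22 months old, with no treatment or genetic change in either group. The methods of the study give another average age, and the age of these boars is therefore uncertain. RNA-seq gave 5 backfat and 5 liver libraries, each made from a whole piece of tissue. Libraries are named by the tissue and number of their column (65, 67, 69, 71 or 72). That number was taken as the boar, which neither the labels nor the column names state. Every comparison by boar below rests on this reading. The replicate numbers of the labels could not be matched to these numbers. Bisulfite libraries of the same tissues carry no value per gene and were not used here. Between 43820042 and 61772737 counts were obtained per library. All 7 adipocyte markers were higher in backfat and all 8 hepatocyte markers in liver, without overlap. Liver 67 stood apart: its hepatocyte marker sum was 37432 nuclear CPM against 125487 to 146896 in the other 4 livers, its red cell marker sum was 2086 against 85.3 to 443, and its skeletal muscle marker sum was 202 against 0.584 to 1.62. Backfat held between 13.3 and 477 nuclear CPM of the muscle markers (highest in backfat 65) and between 200.5 and 696 of the hepatocyte markers (highest in backfat 69). Most of this hepatocyte sum was APOA1, at 196 to 555 in backfat. ALB was 41.9 in backfat 69 and at most 0.410 in the other backfat libraries. In pieces of whole tissue, fewer cells of a type and less RNA per cell cannot be told apart.

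Where both genomes are read from the same table, the sequence itself sets which reads can be counted, and the places concerned are shown here for that reason. Several mitochondrial genes overlap, and a read pair that touches an overlap belongs to both genes and was counted for neither. ATP8 and ATP6, subunits of complex V, share 43 bases, and ND5 and ND6, subunits of complex I on opposite strands, share 17 bases. Both stretches are given from the RefSeq mitochondrial sequence of Sscrofa11.1 on the plus strand, with the shared bases in capitals and flanking bases in lower case.
ATP8 and ATP6 (chrMT:9108-9174): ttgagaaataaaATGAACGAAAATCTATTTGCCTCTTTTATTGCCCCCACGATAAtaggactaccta
ND5 and ND6 (chrMT:14727-14767): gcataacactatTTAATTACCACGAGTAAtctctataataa
ND4L and ND4 share 7 bases, and ATP6 and COX3 share 1. The reads were counted without regard to strand, so that ND6, the only member on the minus strand of the mitochondrial sequence, cannot be told apart from antisense RNA of its region.

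For the nuclear genes, the 250 bases before the RefSeq gene start were read from the same build. A window was found for 41 of the 64 nuclear members by identical symbol, among 19531 windows of protein-coding genes. Letters were searched on both strands. CCGGAAG, a site of the ETS family to which GABPA belongs, was found in 10 of 41 member windows (24.4%) and in 7.77% of all windows. The palindromic site of NRF1 was found in 2 of 41 (4.88%) and in 0.758% of all, and AAGATGGCG, a site of YY1, in 1 of 41 (2.44%) and in 0.778% of all. ACGTG, 1 form of the core of the hypoxia response element, was found in 6 of 41 (14.6%) and in 18.7% of all. The form GCGTG was not searched, and it stands in the NDUFA4L2 and NDUFV1 windows printed below. AAGGTCA, bound by estrogen-related receptors, was found in 2 of 41 (4.88%) and in 3.2% of all. None of these strings contains another, and a match is a description of the letters only. The windows of NDUFA2, NDUFB1, NDUFB5 and NDUFB11, which differed between the tissues, had 0 matches to each of the strings searched and are not printed. The windows of 3 other members that differed are shown, 1 without a match to the strings searched and 2 with a match to CCGGAAG. They are written 5′ to 3′ along the gene with matches in capitals.
NDUFA4L2 (chr5:22548419-22548668, minus strand): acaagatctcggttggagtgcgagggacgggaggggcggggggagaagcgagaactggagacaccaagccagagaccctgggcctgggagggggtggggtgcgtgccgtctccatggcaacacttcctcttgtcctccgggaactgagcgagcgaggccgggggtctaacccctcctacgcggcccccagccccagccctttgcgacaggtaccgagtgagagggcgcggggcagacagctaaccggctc
NDUFV1 (chr2:4964212-4964461, minus strand): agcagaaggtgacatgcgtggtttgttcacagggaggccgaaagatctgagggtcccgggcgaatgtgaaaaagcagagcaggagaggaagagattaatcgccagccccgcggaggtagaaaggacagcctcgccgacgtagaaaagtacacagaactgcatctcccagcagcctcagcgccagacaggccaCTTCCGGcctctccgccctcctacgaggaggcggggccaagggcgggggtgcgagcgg
SDHB (chr6:75678112-75678361, minus strand): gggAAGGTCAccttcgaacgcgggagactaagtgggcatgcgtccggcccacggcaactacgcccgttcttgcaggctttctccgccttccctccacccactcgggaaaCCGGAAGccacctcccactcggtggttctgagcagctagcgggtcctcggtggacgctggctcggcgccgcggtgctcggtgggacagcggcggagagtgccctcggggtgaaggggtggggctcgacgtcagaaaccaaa
In the SDHB window both AAGGTCA and CCGGAAG are in capitals, and in NDUFV1 the letters stand on the opposite strand of the gene.

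Most nuclear subunit genes did not pass the test between backfat and liver. Of the 62 genes tested, 6 were higher in backfat, 6 were higher in liver and 50 were not called by edgeR's quasi-likelihood test, where a call needed an adjusted p no larger than 0.05. These are 9.68% of the members in each direction, beside 27% of all 16289 genes tested that were higher in backfat and 28% that were higher in liver. With the further threshold of a log2 fold change of 2, 2 members were higher in backfat, COX4I2 and NDUFA4L2, and 0 in liver, where 10.9% and 11.4% of all genes were called. The levels of the tissues did not overlap in 4 members that were higher in backfat (background 22.2%) and in 2 that were higher in liver (background 20.5%). The median log2 fold change of backfat over liver was -0.18 over the members and -0.03 over all genes. When the boar was added as a block, 7 members were higher in backfat and 13 in liver, where 27.2% and 26.7% of all genes were called. The 7 further genes higher in liver under the block were NDUFA5, NDUFB2, NDUFB10, NDUFS6, NDUFV2, UQCR10 and UQCRQ, and the further gene in backfat was ATP5MC3. Without TMM and without the block, NDUFA5, NDUFB10, NDUFS6, NDUFV2 and UQCRQ turned above 0.

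**Figure D1:**
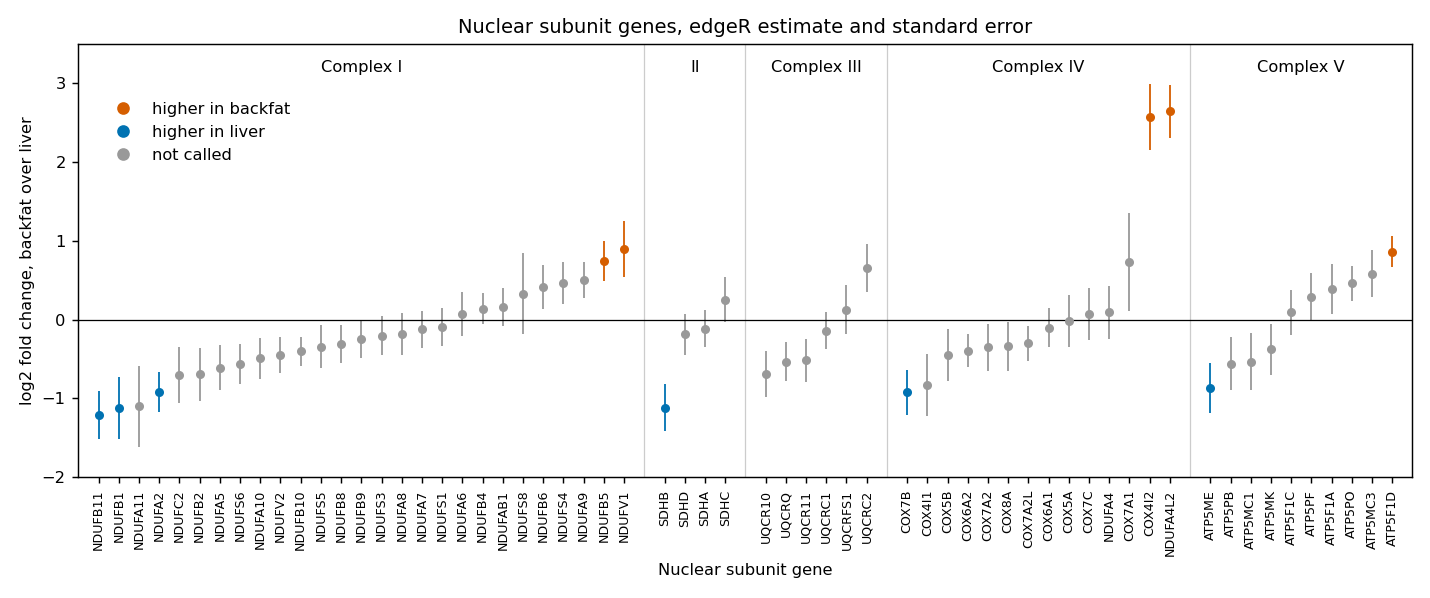
Log2 fold change of backfat over liver (vertical axis) for 61 nuclear subunit genes tested (horizontal axis), grouped by complex. Points are edgeR estimates, bars are standard errors, and colour marks 5 genes called higher in backfat, the 6 called higher in liver and the 50 not called; NDUFA4L2 and COX4I2 lie above all others at 2.65 and 2.57.

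These counts depended on how the libraries were scaled. TMM factors of the nuclear counts were 1.15 to 1.33 in backfat and 0.66 to 0.83 in liver, except liver 67 at 1.10. When the nuclear total alone was used, without TMM, the log2 fold changes of all genes moved by a median of 0.60 toward backfat, and 24 members (38.7%) were then higher in backfat and 0 in liver, beside 44.3% and 15.8% of all genes. In 27 members, none of them called with TMM, the log2 fold change turned above 0. Relative to that shift, the median of the members lay below that of all genes under both scalings (0.46 against 0.56 without TMM).

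Complex I had 3 nuclear genes higher in backfat and 3 higher in liver of 28 tested. NDUFV1, the core subunit that binds NADH and the flavin, had 33.5, 27.7, 34.7, 56.4 and 38.1 nuclear CPM in backfat of boars 65, 67, 69, 71 and 72, and 31.8, 9.36, 31.3, 10.2 and 19.5 in liver. Nuclear CPM are counts outside the 13 mitochondrial protein genes, scaled to a common library size after TMM, and values are given in this order of boars throughout. Backfat was higher in 5 of 5 boars, but liver 65 and 69 reached the level of the lower backfat libraries. Its log2 fold change was 0.90 ± 0.35 (SE, adjusted p = 0.0454), and the call was lost in 7 of 10 fits that left out 1 library (without backfat 65, 69, 71 or 72 or liver 67, 71 or 72). NDUFB5, an accessory subunit of the membrane arm, ranged from 22.3 to 49.8 nuclear CPM in backfat and from 14.5 to 30.2 in liver (log2 fold change 0.75 ± 0.25, adjusted p = 0.0247). It was not called without backfat 69, 71 or 72.

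NDUFB11 and NDUFA2, accessory subunits of the membrane arm and of the matrix arm, were higher in liver without overlap. NDUFB11 had 20.4, 20.1, 42.2, 44.9 and 38.2 nuclear CPM in backfat and 53.0, 76.4, 48.6, 114 and 91.4 in liver (log2 fold change -1.21 ± 0.30, adjusted p = 0.00442). NDUFA2 had 24.0, 22.6, 41.5, 43.4 and 38.1 in backfat and 49.9, 55.5, 46.4, 96.0 and 73.2 in liver (log2 fold change -0.92 ± 0.25, adjusted p = 0.00831). In both genes boars 71 and 72 had the highest livers and boars 65 and 67 the lowest backfat. NDUFB1, another small membrane arm subunit, was 7.39 to 21.1 in backfat and 14.7 to 51.9 in liver. Its tissues overlapped, its log2 fold change was -1.12 ± 0.39 (adjusted p = 0.0291), and it was not called without backfat 65 or 67 or liver 71 or 72. NDUFA2 and NDUFB5 were singled out after their values were seen. The other 22 genes of complex I lay between NDUFA11 at -1.10 and NDUFA9 at 0.51, with NDUFS8 measured at only 0.117 to 1.41 nuclear CPM.

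Complex II is the only complex that is wholly nuclear, and 1 of its 4 genes passed the test. SDHB, the iron-sulfur subunit, had 98.6, 82.4, 116, 167 and 127 nuclear CPM in backfat and 199, 140, 202, 427 and 310 in liver. Liver was higher in 5 of 5 boars, and only liver 67 fell below the highest backfat library. The log2 fold change was -1.12 ± 0.30 (adjusted p = 0.00755). The flavin subunit SDHA did not pass (327 ± 79.8 nuclear CPM in backfat and 354 ± 72.1 in liver, SD, n = 5 each), nor did the membrane anchors SDHC (167 ± 45.1 and 140 ± 55.5) and SDHD (116 ± 34.4 and 132 ± 37.9). Their log2 fold changes were -0.11, 0.26 and -0.19, and without TMM SDHA and SDHD turned to 0.52 and 0.46. Whether SDHB differed from the other subunits of the enzyme was not tested.

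In complex III, 0 of 6 nuclear genes were called in either direction by edgeR, and 2 had an unadjusted p under 0.05 with a higher level in liver. DESeq2 called 1 toward liver, and limma-voom called 1 in each direction. UQCR10 and UQCRQ, small subunits around the cytochrome b core, were 51.6 to 122 and 40.3 to 106 nuclear CPM in backfat, and 91.3 to 195 and 74.9 to 114 in liver. Both were called under the boar block, with log2 fold changes of -0.70 ± 0.16 (adjusted p = 0.00485) and -0.61 ± 0.21 (adjusted p = 0.0369). UQCRC2, a core protein, had a log2 fold change of 0.65 ± 0.31 (adjusted p = 0.0892), and the Rieske protein gene UQCRFS1 had 0.13 ± 0.31.

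Complex IV held both members with the largest differences. COX4I2 encodes the alternative form of subunit 4, known from lung, pericytes and hypoxic cells. Its level was 24.3, 22.7, 30.8, 24.4 and 33.5 nuclear CPM in backfat and 2.24, 10.3, 1.75, 4.75 and 3.77 in liver. The lowest backfat library was above the highest liver library, liver 67. The estimated fold was 5.96 (log2 fold change 2.57 ± 0.42, adjusted p = 0.000202). The common form COX4I1 did not pass the test, at 162 ± 54.5 nuclear CPM in backfat and 287 ± 177 in liver (log2 fold change -0.83 ± 0.39, adjusted p = 0.0890). Per kilobase of annotated exon, COX4I2 made up 24.2, 22.8, 23.7, 13.5 and 19.2% of the sum of both forms in backfat, and 2.44, 2.63, 1.57, 1.90 and 2.45% in liver.

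NDUFA4L2 is a paralog of NDUFA4, a subunit now placed in complex IV, and is known as a gene induced by hypoxia. It had 26.5, 18.2, 39.4, 34.6 and 32.1 nuclear CPM in backfat and 8.83, 3.35, 5.58, 3.07 and 3.19 in liver. The tissues did not overlap, and the estimated fold was 6.26 (log2 fold change 2.65 ± 0.33, adjusted p = 2.54e-05). NDUFA4 itself was 156 ± 60.5 nuclear CPM in backfat and 146 ± 52.6 in liver, and its log2 fold change of 0.09 ± 0.33 turned below 0 when liver 67, backfat 71 or backfat 72 was left out. Per kilobase, NDUFA4L2 was 3.71 to 6.39% of the sum of both genes in backfat and 0.416 to 1.46% in liver. Genes of pericytes and vascular smooth muscle were also higher in backfat. All 10 of a list written after the values were seen were called, beside 27% of all genes. Their summed level was 1209 to 1572 nuclear CPM in backfat and 245 to 546 in liver, with liver 67 the highest liver. Among the livers, COX4I2 was highest in liver 67 as well (10.3), but NDUFA4L2 was highest in liver 65 (8.83), where the sum was 246. The part of these cells in the result was not tested.

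The tissue forms known from heart and skeletal muscle did not pass the test. COX7A1 was near the detection limit, at 0.078 to 0.484 nuclear CPM in backfat and 0.065 to 0.545 in liver, and its partner COX7A2 was 68.7 ± 27.3 and 87.6 ± 29.5 (log2 fold change -0.35 ± 0.29). COX6A2 was 18.2 to 27.7 in backfat and 20.02 to 36.7 in liver, and COX6A1 was 149 to 295 and 145 to 307. COX7B, an accessory subunit, was called toward liver, with 103, 91.7, 122, 207 and 187 nuclear CPM in backfat and 224, 182, 226, 409 and 309 in liver (log2 fold change -0.92 ± 0.29, adjusted p = 0.0169). Liver was higher in 5 of 5 boars, and only liver 67 lay within the range of backfat. COX8A, the only COX8 gene in the table, was 152 ± 53.9 in backfat and 193 ± 75.5 in liver, and COX7A2L, which joins complexes III and IV, was 85.1 ± 20.8 and 105 ± 28.0. Without TMM the log2 fold changes of COX6A1, COX6A2, COX7A2, COX7A2L and COX8A all turned above 0. The symbols COX6B1 and COX7B2 were not among the rows analysed here.

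Complex V had 1 gene called in each direction of 10. ATP5F1D encodes the delta subunit of the rotating stalk, and its level was 148, 149, 199, 258 and 206 nuclear CPM in backfat and 107, 115, 123, 84.6 and 98.3 in liver, without overlap (log2 fold change 0.86 ± 0.20, adjusted p = 0.00246). ATP5ME, subunit e of the membrane part, was 59.7, 53.8, 81.0, 140 and 110 in backfat and 96.1, 201, 111, 244 and 157 in liver. Liver was higher in 5 of 5 boars, although the tissues overlapped, and the log2 fold change of -0.86 ± 0.32 (adjusted p = 0.0363) lost its call in 6 of 10 fits that left out 1 library (backfat 65, 67 or 69 or liver 67, 71 or 72). ATP5F1A, which encodes the alpha subunit, was 359 to 1001 in backfat and 265 to 579 in liver (log2 fold change 0.39 ± 0.32). Of the genes that encode the same c subunit of the rotor, ATP5MC1 was 71.5 ± 36.8 in backfat and 103 ± 33.6 in liver, and ATP5MC3 was 113 ± 42.2 and 75.1 ± 23.4. Neither passed without the block, and ATP5MC3 was called under the block (0.57 ± 0.21, adjusted p = 0.0430). Without TMM the log2 fold change of ATP5MC1 turned to 0.08.

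**Figure D2:**
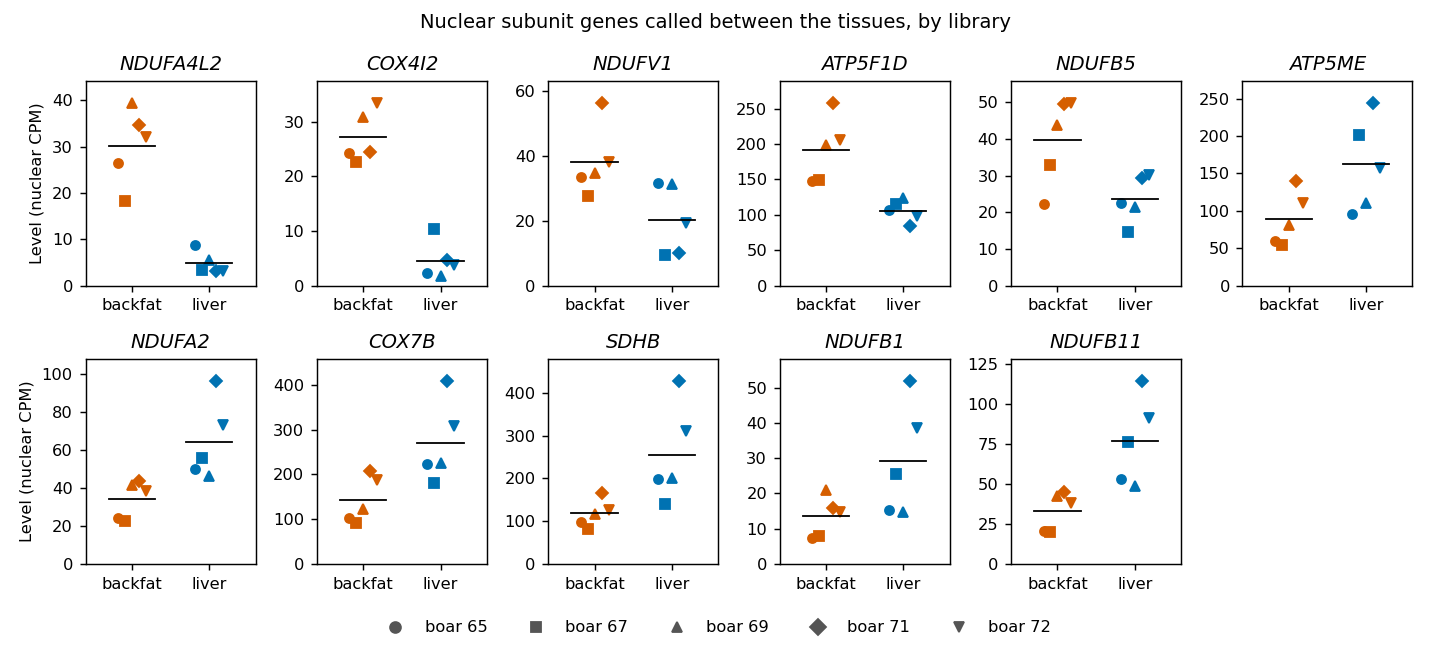
Level in nuclear CPM (vertical axes, from 0) of 11 nuclear subunit genes called between the tissues, with 1 point per library, a marker shape per boar and a line at the mean of 5 libraries. NDUFA4L2, COX4I2 and ATP5F1D show no overlap with backfat above, NDUFA2 and NDUFB11 show none with liver above, and boars 71 and 72 have the highest levels of both tissues in NDUFB5, SDHB and COX7B.

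Length and direction went together among the members. The 17 tested members with under 1 kb of annotated exon had a median log2 fold change of -0.34, and the 14 of 1 to 2 kb had -0.42. The 24 of 2 to 5 kb had 0.08 and the 7 longer ones 0.26. Over all genes the same classes had medians of -0.15, -0.22, -0.04 and 0.03. The part of transcript length in these differences was not tested.

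Within each tissue the nuclear members were high or low together, and the same boars stood high in both tissues. The summed level of the 64 genes was 4735, 4590, 6275, 9355 and 7859 nuclear CPM in backfat of boars 65, 67, 69, 71 and 72, and 6368, 5536, 6564, 9253 and 8139 in liver. Boars 71 and 72 were highest in both tissues, and boar 67 lowest in both. In backfat, the libraries of boars 71 and 72 were above all 3 others in 44 of 62 members and below all 3 in 0, beside 14.9% and 18.2% of all 16276 nuclear genes tested. In liver they were above in 39 and below in 4, beside 14.1% and 12.4%. These 2 boars were singled out after the values were seen. Backfat 71 was the highest of its tissue in 48 members, and backfat 65 and 67 were the lowest in 29 and 31. Liver 71 was the highest in 36 members and liver 67 the lowest in 35. The median deviation of the members from their tissue mean was 0.53 (log2) in backfat 71 and 0.46 in liver 71, against -0.43 and -0.44 in backfat 65 and 67 and -0.36 in liver 67. This spread within a tissue enters the error of every comparison above. Libraries also differed in genes of short length: the median deviation of all genes with under 1 kb of exon was -0.12, -0.06, 0.04, 0.02 and 0.11 in backfat and -0.10, 0.03, -0.15, 0.10 and 0.08 in liver. The members and the short genes deviated to the same side in every library except liver 67, where the members were at -0.36 and the short genes at 0.03. The part of the difference in short genes in the levels of the members was not tested.

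**Figure D3:**
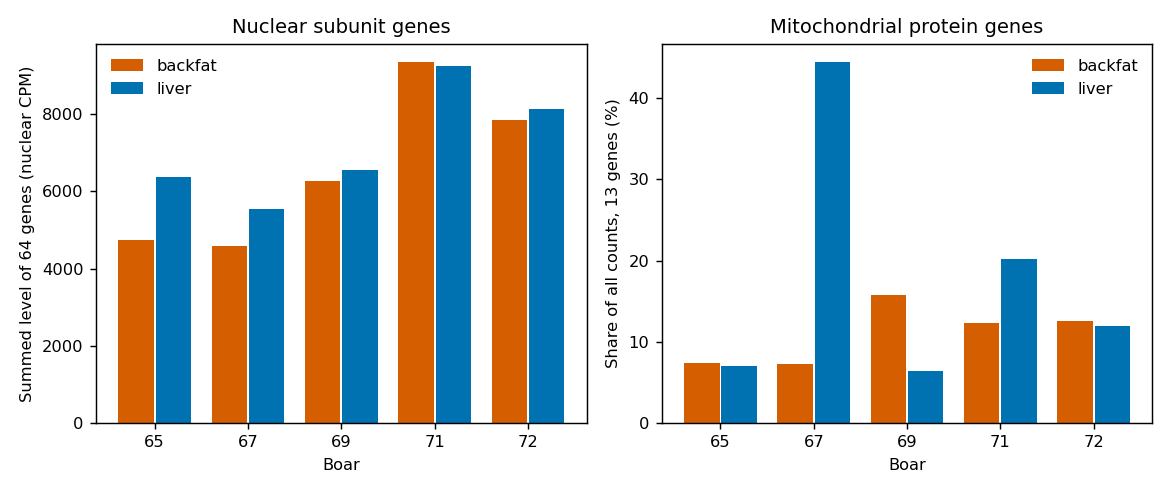
Left, summed level of the 64 nuclear subunit genes in nuclear CPM, and right, share of all counts taken by the 13 mitochondrial protein genes in percent, for each boar (horizontal axis) with 1 bar per library. Boars 71 and 72 have the tallest nuclear bars in both tissues, while the mitochondrial share is highest in liver 67 at 44.5%.

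In liver the mitochondrial transcripts varied far more between libraries than the nuclear members, with sums of 87120 to 729113 against 5536 to 9253 nuclear CPM. In backfat these ranges were 59938 to 147603 and 4590 to 9355. The 13 genes took 7.38, 7.20, 15.7, 12.3 and 12.5% of all counts in backfat and 6.97, 44.5, 6.38, 20.2 and 11.9% in liver, in the order of boars given above. Liver 67 and liver 71 were high, and liver 65 and 69 were below every backfat library. For each count of a nuclear member there were 12.5 to 23.5 mitochondrial counts in backfat, and 14.1, 131.7, 13.3, 41.6 and 22.9 in liver. The ratio of the transcripts of both genomes spanned a wider range in liver than in backfat, and its highest value came from the liver library with the lowest hepatocyte markers.

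Relative to nuclear RNA, all 13 genes had a negative log2 fold change of backfat over liver, from -0.92 for ND5 to -1.79 for ND1, and the tissues overlapped in each of them. Only ND1 and ND3, both membrane subunits of complex I, were called. ND1 had 2107, 1870, 5475, 3659 and 3561 nuclear CPM in backfat and 3628, 28703, 3616, 14128 and 7749 in liver (log2 fold change -1.79 ± 0.65, adjusted p = 0.0317). ND3 had 827, 839, 1852, 1354 and 1464 in backfat and 1076, 8201, 1262, 4976 and 2055 in liver (log2 fold change -1.47 ± 0.57, adjusted p = 0.0445). Liver 67, 71 and 72 lay above all backfat libraries in both genes, and liver 65 and 69 did not. Neither gene was called under the boar block (adjusted p = 0.135 and 0.170), without TMM, or without liver 67 (log2 fold changes -1.12 and -0.88), nor without backfat 65, 67, 71 or 72 or liver 71. DESeq2 called 8 of the 13 genes toward liver.

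Per kilobase of annotated gene, the counts of the mitochondrial genes were far from equal. Pairs that touched an overlap were not counted, while the length was that of the whole gene. ATP8 shares 43 of its 204 bases and ND4L 7 of its 297, and the effect on their rank was not tested. In backfat ATP6 (22167 ± 8613 nuclear CPM per kilobase, SD, n = 5), COX3 (21378 ± 7711), COX1 (18476 ± 7341) and COX2 (12904 ± 4671) led, followed by CYTB (7106 ± 2761) and ATP8 (6366 ± 2842). ND4L (2284 ± 696) and ND5 (2745 ± 1338) were the lowest. In liver COX3 (71867 ± 58032), COX1 (62279 ± 60712), ATP6 (53294 ± 48862) and COX2 (42230 ± 39086) led, and ND4L (4716 ± 4650) and ND5 (5201 ± 5406) were again lowest. Much of this spread was that of the mitochondrial total, which the 13 genes share. As a share of that total per kilobase, COX1 (15.5 to 20.4% per kilobase), COX2 (11.6 to 13.3%) and CYTB (6.55 to 7.60%) did not overlap in backfat, nor did CYTB and ATP8 (5.52 to 6.53%), while all other neighbours in the order did. In liver COX1 (19.1 to 22.2%), ATP6 (16.6 to 18.8%), COX2 (13.5 to 14.7%) and CYTB (4.44 to 6.26%) were apart, as were ND3 (3.19 to 4.19%) and ND5 (1.49 to 1.94%), and the remaining neighbours overlapped.

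When each gene was set against the total of the 13, the libraries were closer to each other. COX1, the catalytic subunit of complex IV, made up 24.0 to 31.5% of the pool in backfat and 29.6 to 34.3% in liver, although the total itself differed severalfold. The share of ND5, a proton-pumping subunit of complex I, was 4.95, 3.87, 5.74, 4.74 and 4.52% in backfat and 2.72, 3.53, 2.71, 3.01 and 2.80% in liver. No overlap was seen, and the log2 fold change was 0.69 ± 0.28 (adjusted p = 0.0548). ND4L, a small subunit of the same arm, was 0.946, 0.639, 0.636, 0.619 and 0.618% in backfat and 0.524, 0.513, 0.467, 0.392 and 0.469% in liver, again with backfat above (log2 fold change 0.55 ± 0.22, adjusted p = 0.0522). ATP6, the proton channel of complex V, was 14.8 ± 0.336% in backfat and 12.1 ± 0.537% in liver. CYTB, the only mitochondrial subunit of complex III, was 7.96 ± 0.489% and 5.96 ± 0.793%. Both were also higher in backfat without overlap. COX2, which receives electrons from cytochrome c, was 8.76 ± 0.50% in backfat and 9.68 ± 0.337% in liver, and its lowest liver library was above its highest backfat library.

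Within the pool 4 of 13 genes were therefore above in backfat and 1 in liver without overlap. Of all genes tested, 22.2% and 20.5% showed none, but these are nuclear CPM levels and not shares of a total. By edgeR 0 of 13 were called, and 2 had an unadjusted p under 0.05, ND4L and ND5, both higher in backfat. limma-voom called 3, ND4L, ND5 and ATP8 (adjusted p = 0.0209, 0.00537 and 0.0444). edgeR called ND4L and ND5 without backfat 69, and also ATP8 without liver 67. ND6 was higher in backfat in 5 of 5 boars (2.48 ± 0.478% against 1.91 ± 0.222%), and ND1, COX1 and COX3 were higher in liver in 5 of 5, all with overlap. COX3 was 14.8 to 18.6% in backfat and 17.2 to 23.7% in liver. ATP8, which shares 43 bases with ATP6, was 1.13 to 1.33% in backfat and 0.704 to 0.842% in 4 livers, but 1.30% in liver 67. The part of uncounted overlap pairs in the shares of ATP8 and ND4L was not tested. The shares sum to the whole, so that a higher share of 1 gene lowers the others. edgeR moderates the spread of each gene toward that of all genes of the table, and its standard errors for these shares rest on that.

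**Figure D4:**
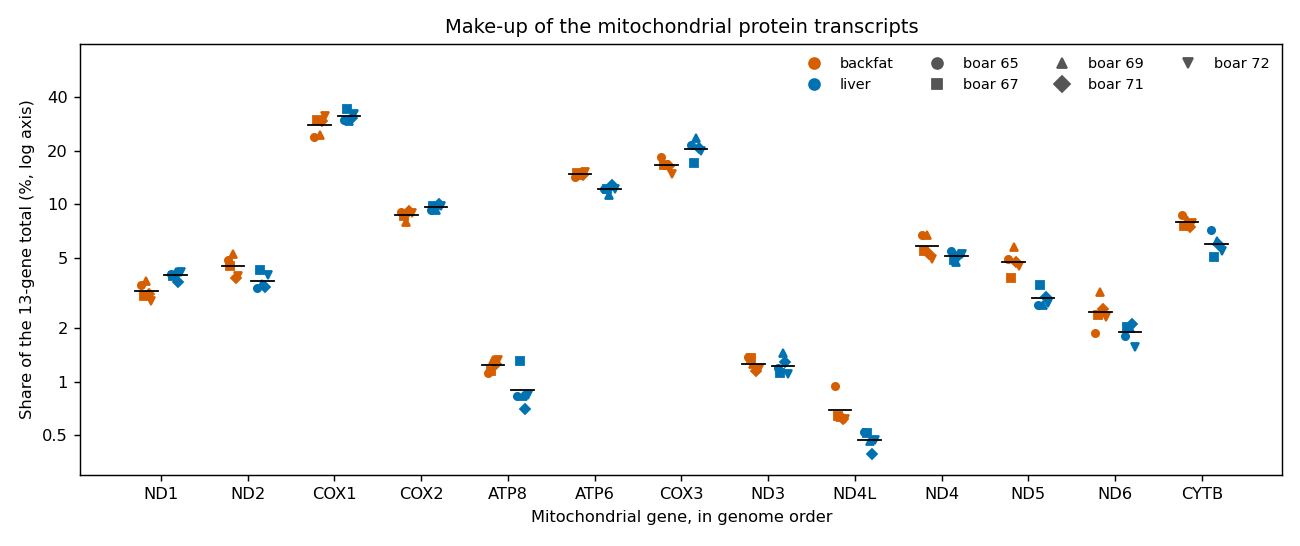
Share of the 13-gene total in percent (vertical log axis) of each mitochondrial protein gene in genome order (horizontal axis), with 1 point per library, a marker shape per boar and lines at the means of 5 libraries. ATP6, ND4L, ND5 and CYTB lie higher in backfat and COX2 higher in liver without overlap, and ATP8 of liver 67 and ND4L of backfat 65 lie apart.

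Assembly factors, which build the complexes without staying in them, were called toward liver in 51.4% of the genes tested, beside 28% of all genes (and 27% toward backfat). Of 35 assembly factors tested, 18 were higher in liver and 0 in backfat by edgeR, and at an unadjusted p under 0.05, by DESeq2 and by limma-voom the count toward backfat was 0 as well. Their median log2 fold change was -0.49. This direction depended on the scaling: without TMM 7 (20%) were higher in backfat and 5 (14.3%) in liver, beside 44.3% and 15.8% of all genes, and the median was 0.13. FOXRED1, an assembly factor of complex I, had 16.96, 18.5, 17.03, 26.3 and 29.6 nuclear CPM in backfat and 192, 156, 245, 256 and 227 in liver. Its estimated fold was 9.93 toward liver (log2 fold change -3.31 ± 0.23, adjusted p = 1.68e-07). COA7, an assembly factor of complex IV, had 1.11 to 1.52 in backfat and 3.23 to 12 in liver (log2 fold change -2.24 ± 0.35, adjusted p = 0.000158). The tissues did not overlap in 8 of the 35 factors, all with liver above, where 20.5% of all genes lay without overlap toward liver and 22.2% toward backfat.

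Genes that copy and transcribe mitochondrial DNA were likewise called toward liver only, 7 of 12 tested (58.3%) against 0 toward backfat, beside 28% and 27% of all genes, with a median log2 fold change of -0.84, and the count toward backfat was 0 at an unadjusted p under 0.05, by DESeq2 and by limma-voom. Without TMM 4 were higher in liver and 1 in backfat. TWNK, the helicase of mitochondrial DNA, had 10.8, 9.98, 11.8, 12.2 and 8.48 nuclear CPM in backfat and 36.8, 18.7, 39.2, 35.7 and 35.7 in liver (log2 fold change -1.64 ± 0.21, adjusted p = 2.91e-05). TFB2M, a transcription initiation factor, was 4.59 to 8.0 in backfat and 14.1 to 19.0 in liver (-1.39 ± 0.19, adjusted p = 4.84e-05). Of 14 genes of mitochondrial RNA processing, 7 (50%) were higher in liver and 0 in backfat, beside the same 28% and 27%, and the count in backfat was again 0 by DESeq2, by limma-voom and at an unadjusted p under 0.05. Without TMM 2 were higher in liver and 0 in backfat. FASTKD3, which acts on mitochondrial messenger RNA, was 6.57 to 8.72 in backfat and 13.1 to 19.1 in liver (-1.19 ± 0.17, adjusted p = 7.24e-05), and PNPT1, a mitochondrial RNA exonuclease, was 11.7 to 16.0 and 19.2 to 43.6 (-1.12 ± 0.23, adjusted p = 0.00105). Liver 67, with the most mitochondrial counts, had the lowest TWNK of the livers.

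The citrate cycle, which supplies the electrons, had 4 of 13 enzymes higher in backfat and 4 higher in liver, 30.8% each way and near the 27% and 28% of all genes. This even split depended on the scaling: without TMM 7 (53.8%) were higher in backfat and 2 (15.4%) in liver, beside 44.3% and 15.8% of all genes. Genes of the ATP-forming and the GTP-forming kinds of succinyl-CoA ligase went in opposite directions. SUCLA2, the subunit that forms ATP, had 98.2, 141, 76.8, 99.4 and 90.9 nuclear CPM in backfat and 27.6, 23.7, 30.5, 23.2 and 24.9 in liver (log2 fold change 1.96 ± 0.18, adjusted p = 1.68e-06). SUCLG2, the subunit that forms GTP, had 79.8, 101, 100.1, 116 and 106 in backfat and 308, 412, 359, 431 and 317 in liver (log2 fold change -1.86 ± 0.18, adjusted p = 3.27e-06). Neither gene overlapped between the tissues. CS, citrate synthase, was 196 to 338 in backfat and 63.4 to 125 in liver (1.27 ± 0.23, adjusted p = 0.000433), and FH, fumarase, was 95.0 to 144 and 234 to 357 (-1.31 ± 0.19, adjusted p = 9.27e-05).

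Of 8 nuclear regulators of these genes, 3 were higher in backfat (37.5%) and 1 in liver (12.5%), where 27% and 28% of all genes were called. The counts without TMM were 6 (75%) and 1 (12.5%), beside 44.3% and 15.8%. PPARGC1A, a coactivator of mitochondrial genes, had 0.71, 0.303, 0.601, 0.526 and 0.343 nuclear CPM in backfat and 17.6, 38.7, 16.0, 23.0 and 19.0 in liver (log2 fold change -5.51 ± 0.36, adjusted p = 8.98e-08). Its relative PPARGC1B was 4.91 to 21.1 in backfat and 3.44 to 5.68 in liver (1.41 ± 0.39, adjusted p = 0.00787), with some overlap. NRF1, whose binding letters were searched above, was 19.5 to 23.2 in backfat and 12.9 to 17.4 in liver (0.54 ± 0.14, adjusted p = 0.00668). ESRRG, below the level set for named genes and chosen after its values were seen, was 1.01 to 1.95 in backfat and at most 0.353 in liver. GABPA was not called (0.43 ± 0.22, adjusted p = 0.125). Of 5 carriers, among them cytochrome c (CYCS) and its partner CYC1, 0 were called by edgeR or limma-voom, while DESeq2 and an unadjusted p under 0.05 each gave 1 toward liver. Without TMM 2 carriers were higher in backfat and 0 in liver. Over these lists of 87 tested genes 7 were higher in backfat (8.05%) and 37 in liver (42.5%), beside 27% and 28% of all genes. Without TMM the counts were 23 (26.4%) and 14 (16.1%), beside 44.3% and 15.8%, so that the share toward liver was then close to that of all genes.

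**Figure D5:**
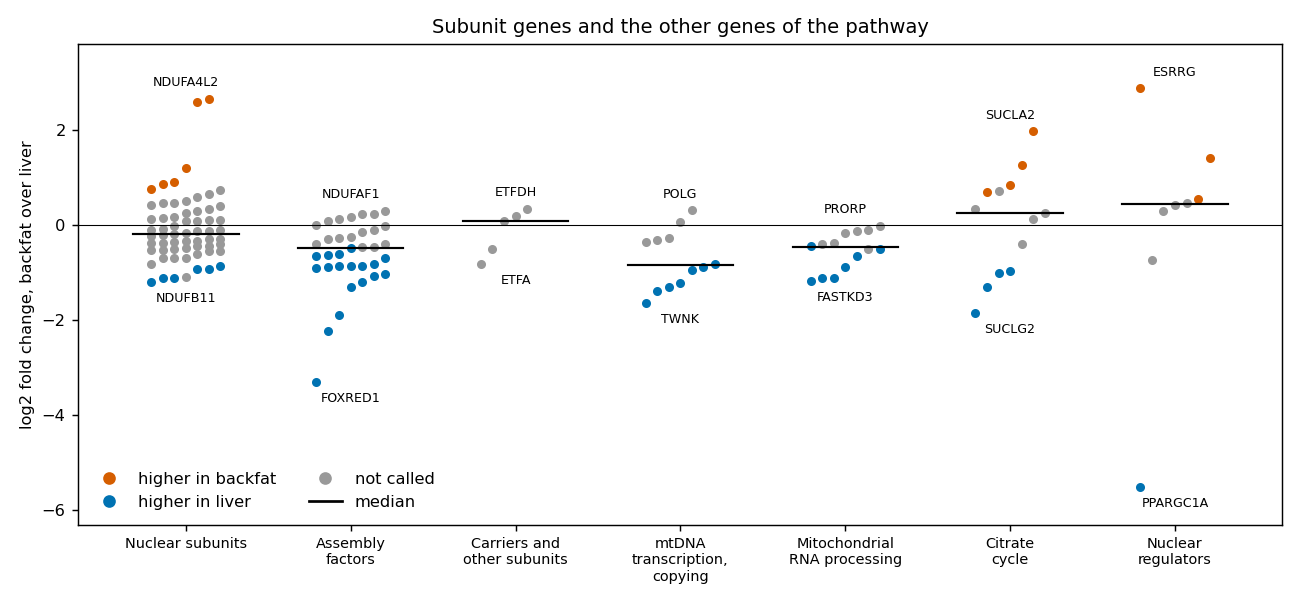
Log2 fold change of backfat over liver (vertical axis) for the 62 nuclear subunit genes and the 6 lists of other genes of the pathway, with 1 point per gene, colour for the call and a line at the median. Under the TMM scaling plotted, assembly factors, genes of mitochondrial DNA and genes of RNA processing have called genes toward liver only. The subunits and the citrate cycle have calls in both directions. Without TMM, assembly factors and genes of mitochondrial DNA also have calls toward backfat. The subunits then have 24 toward backfat and 0 toward liver, and the citrate cycle has 7 and 2. The gene at each end is named.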

How the data were processed

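RNA-seq libraries of backfat and liver of 5 boars were analysed. The authors trimmed reads with Trimmomatic, aligned them with HISAT2 to Sscrofa11.1 and counted read pairs per gene with featureCounts 2.0.1 and the Ensembl release 99 annotation, without strand, so the deposited values are raw counts per gene. The authors also gave exon lengths, used per kilobase. The count table held 0 further columns of samples. Members and lists were chosen with earlier results of these data known, and the pericyte list after the values were seen. Boars were paired by column names, and deviations of same-boar libraries correlated at 0.04 to 0.22 over 16276 genes. For boars 67 and 69 the liver of another boar correlated better with the backfat (0.102 against 0.099, and 0.150 against 0.041), so the pairing rests on the names.

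In R 4.3.3, edgeR 4.0.16 filtered genes by filterByExpr, scaled all rows outside the 13 mitochondrial protein genes, called nuclear here, by their own total and TMM, and fitted tissue alone by the quasi-likelihood test. Mitochondrial rRNA and tRNA carry no name in the tables used and were not separated from those rows. Mitochondrial genes were fitted against nuclear RNA and, in a second fit, against their 13-gene total. Benjamini-Hochberg adjustment covered 16289 genes, with calls at 0.05. Named genes were the mitochondrial genes, the forms and paralogs listed, the SDH genes, and per complex or list the 2 largest called changes in each direction with a mean of at least 1 CPM. Alternatives were DESeq2 1.42.0, limma 3.58.1 (voom), other scalings and filters, a boar block and leaving out libraries. The counts include 1 nuclear member whose values are not reported here. Fits were tested on simulated counts. P-values measure spread between these libraries only, whose replication beyond the boar is not stated. Figures were made with matplotlib 3.10.9.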

Additional observations from a re-analysis of the deposited data

Results flagged for a closer look

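In 132 groups of 5 libraries examined for a single library far from the other 4 (Dixon's test, critical value 0.71), 7 stood out, where chance alone gives about 5 in 100. Liver 67 accounted for 5 of them. It was lowest for SDHA at 230.4 nuclear CPM (365 to 420 in the other livers), for CS at 63.4 (114 to 125) and for TWNK at 18.7 (35.7 to 39.2). It was highest for ATP8, both per nuclear RNA at 9507 nuclear CPM (729 to 2710) and within the mitochondrial pool at 1.30% (0.704 to 0.842%). Liver 71 was highest for COX7A1 at 0.545 nuclear CPM (0.065 to 0.177), a level that rests on 14 counts. Backfat 65 was highest for the ND4L share at 0.946% (0.618 to 0.639%).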

How the results depend on the processing

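The calls of COX4I2, NDUFA4L2 and ATP5F1D held in direction and threshold under all alternatives run. Other counts moved. Without TMM the nuclear members gave 24 toward backfat and 0 toward liver, mitochondrial genes per nuclear RNA 0 toward liver, and other pathway genes 23 and 14. Mitochondrial genes per nuclear RNA toward liver were 2, but 8 by DESeq2, 4 with at least 10 counts in every library, 1 without a filter, 0 under the replicate block by boar and 0 without liver 67 and backfat 65. The block also gave 13 nuclear members toward liver, with 8 in complex I (3 without it) and 2 in complex III (0 without it), and 2 in complex V toward backfat (1 without it). Pool genes toward backfat were 0, but 3 by limma-voom, 2 against a total without overlapping genes and ND6, 1 without liver 67 and backfat 65, and 3 without liver 67 and backfat 69. Leaving out each library gave 4 to 8 nuclear members toward backfat, 4 to 10 toward liver, 0 to 4 mitochondrial genes per nuclear RNA toward liver and 0 to 3 pool genes toward backfat. The pairs left out with liver 67 were chosen after seeing the data. The causes were not tested.

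Without TMM 27 of 62 members changed sign, 0 of them called with TMM and 3 called toward backfat without it, and 26 of 87 other pathway genes did, 3 of them called with TMM. Among the genes named by rule these were COX6A1 at 0.54, COX6A2 at 0.21, COX7A2 at 0.28, COX7A2L at 0.32, COX8A at 0.32, ATP5MC1 at 0.080, SDHA at 0.52 and SDHD at 0.46. With size factors over the 13 genes they were ND3 at -0.16 and ND4 at -0.0069. Without liver 67 and backfat 65, ND5 was 0.087 and ATP8 0.069 per nuclear RNA, and ND3 was -0.026 in the pool. Without liver 67 and backfat 69, NDUFA4 was -0.11. Leaving out 1 library moved COX6A1 between -0.24 and 0.028 and NDUFA4 between -0.10 and 0.24. Depth limits COX6B2, COX7A1 and NDUFS8, whose counts were low.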
